A study of Mus musculus with 8 samples.

Results

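The respiratory chain genes were taken here as the protein-coding genes whose symbols name a subunit of complexes I to V or a complex I assembly factor, from the nuclear and from the mitochondrial genome. The symbol patterns chose 106 of the 52636 genes in the count matrix, 93 of them nuclear and 13 mitochondrially encoded. The nuclear genes comprised 36 of complex I, 4 of complex II, 8 of complex III, 20 of complex IV, 16 of complex V, 8 Ndufaf assembly factors and Atp5s. In all, 102 passed the filter on low counts, 90 nuclear and 12 mitochondrial. Cox7b2, Cox8b and Cox8c had 0 counts in all libraries, and mt-Nd4l had 3 to 21 counts.

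The libraries were poly(A) RNA of LEPR+ stromal cells of the long bones of C57BL/6 mice, which were digested with collagenase, depleted of CD45+ and Ter119+ cells and sorted 2 times as living CD45- Ter119- CD31- CD144- LEPR+ cells. Control mice (4 libraries) received 150 μg of HEL-Ig, an IgG1 against hen egg lysozyme, and the others (4 libraries) 150 μg of LTbR-Ig, a decoy of the lymphotoxin beta receptor, each intravenously once a week for 3 weeks. Age and sex were not given, and no label says whether a library came from 1 mouse or from several, so the p-values measure the spread between libraries. The comparison asks which transcripts of these cells differ when ligands of the receptor are captured.

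The respiratory chain passes electrons from NADH (complex I) and succinate (complex II) through ubiquinone, complex III and cytochrome c to oxygen at complex IV, and the proton gradient made on the way drives ATP synthesis by complex V. Complex II is wholly nuclear encoded, whereas the other complexes join nuclear subunits with proteins made from the mitochondrial genome, whose transcripts are cut from long polycistronic precursors. LEPR+ stromal cells surround marrow sinusoids and are known as a source of CXCL12 and stem cell factor and as progenitors of adipocytes and osteoblasts.

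All 10 marker genes of the sorted population were detected in every library, among them Lepr at 4305 ± 45.9 CPM (counts scaled by effective library size; mean ± SD, n = 4) in control and 3907 ± 554 (n = 4) in LTbR-Ig libraries. Of the other markers, Kitl, which encodes stem cell factor, had a log2 fold change of -0.58 (unadjusted p = 0.000258, adjusted p = 0.125, edgeR), Pdgfra -0.29 (unadjusted p = 0.022) and Cxcl12 0.22 (unadjusted p = 0.114). Total counts were 52378101 to 64403177 per library. Erythroid genes, with all 9 measured members detected in every library, held 2.16 to 5.49% of counts in control and 2.18 to 4.16% in LTbR-Ig libraries, although Ter119+ cells were depleted. The 9 megakaryocyte genes held 0.0606 to 0.257% and 0.0904 to 0.354%, the 10 neutrophil genes 0.406 to 0.939% and 0.458 to 0.894% (Mmp8 and Mmp9 were the members of that list with an unadjusted p under 0.05, both lower in LTbR-Ig libraries), and the 9 endothelial genes 0.00493 to 0.0136% and 0.00331 to 0.0281%. Control replicate 3 and LTbR-Ig replicate 2 were the farthest libraries on either side of the first principal component over all tested genes, which held 18.9% of the variance. On this component controls lay from -79.3 to -11.8 and LTbR-Ig libraries from -9.87 to 130, so the groups did not overlap. In bulk RNA, fewer cells of a type and less RNA per cell cannot be told apart.

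Nuclear respiratory chain transcripts were present at nearly the same level in both groups, and the mitochondrial transcript mt-Nd4, a core proton-pumping subunit of complex I, was the member that stood apart. No member passed the threshold of an adjusted p of 0.05 over all 16045 tested genes in edgeR, where 6 genes (0.0374%) passed. At an unadjusted p under 0.05, 2 of 102 tested members were higher in LTbR-Ig libraries, mt-Nd4 and Cox4i1, against 3.39% of all genes, and none was lower, against 2.93% of all genes. The groups of 4 libraries did not overlap for 1 member, mt-Nd4, which was higher, against 2.36% of all genes, and for no member that was lower, against 2.53% of all genes. DESeq2 called 1 member, again mt-Nd4, where it called 1.29% of 15621 genes, and limma-voom called none.

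**Figure D1:**
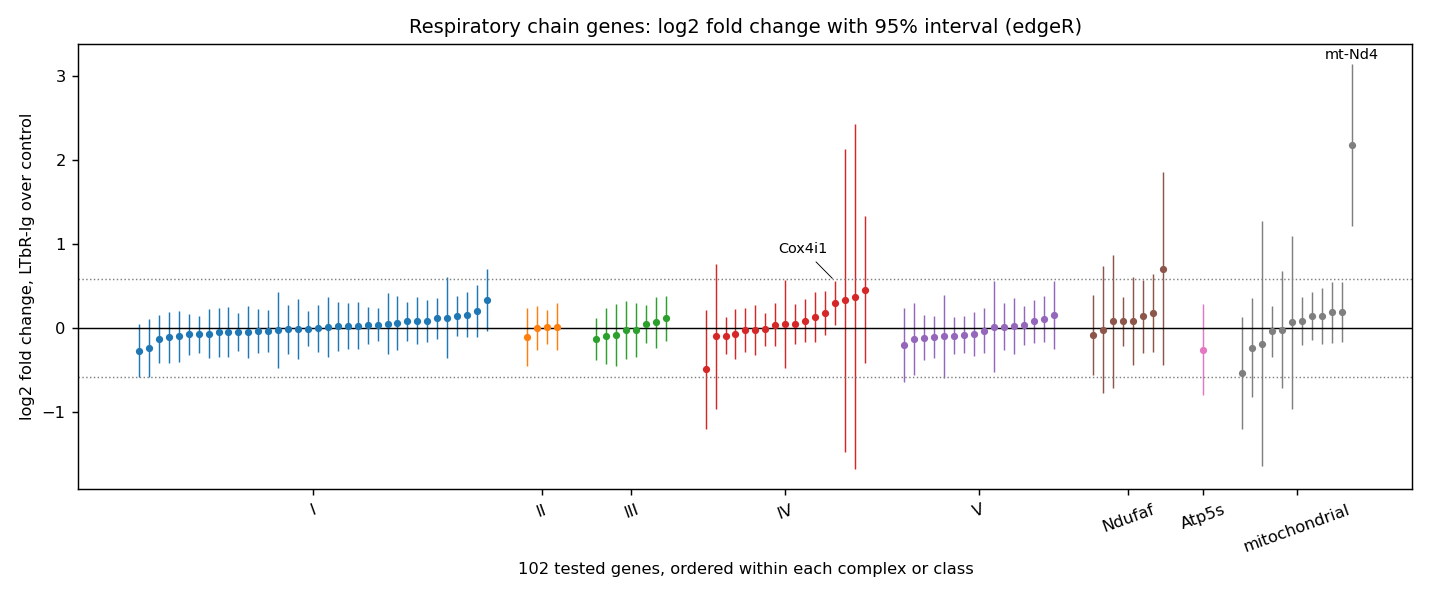
Log2 fold change (LTbR-Ig over control, y axis) of the 102 tested respiratory chain genes with 95% intervals from the edgeR fit, ordered by value within each complex or class on the x axis; dotted lines mark a 1.5-fold difference in either direction. The nuclear genes lie close to 0, and mt-Nd4 lies at 2.18, above every other member.

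The 81 tested nuclear subunits had a median log2 fold change of -0.01 (range -0.50 to 0.45), with 39 above and 42 below 0, beside a median of -0.00213 over all tested genes. By complex the medians were -0.01 for complex I, 0.01 for complex II, -0.02 for complex III, 0.04 for complex IV and -0.05 for complex V. The 95% interval of the fold change lay within 1.5-fold in either direction for 70 of the 81 subunits (86.4%) and within 2-fold for 77. Of all tested genes, 20.6% had an interval within 1.5-fold. Among genes with a control mean of 50 to 700 CPM, the range that holds most nuclear members, 69 of 75 nuclear members (92.0%) and 2207 of 3620 genes (61.0%) had such an interval.

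Summed over genes, nuclear subunits stood at 13319 ± 739 CPM (n = 4) in control and 13258 ± 1036 CPM (n = 4) in LTbR-Ig libraries. Complex I summed to 4704 ± 228 and 4709 ± 374 CPM, complex II to 965 ± 106 and 951 ± 69.97 CPM, and complex III to 1393 ± 132 and 1398 ± 143 CPM. Complex IV summed to 2084 ± 95.4 and 2171 ± 178 CPM, and complex V to 4173 ± 228 and 4030 ± 358 CPM. In each of these sums the difference between groups was smaller than the larger SD.

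**Figure D2:**
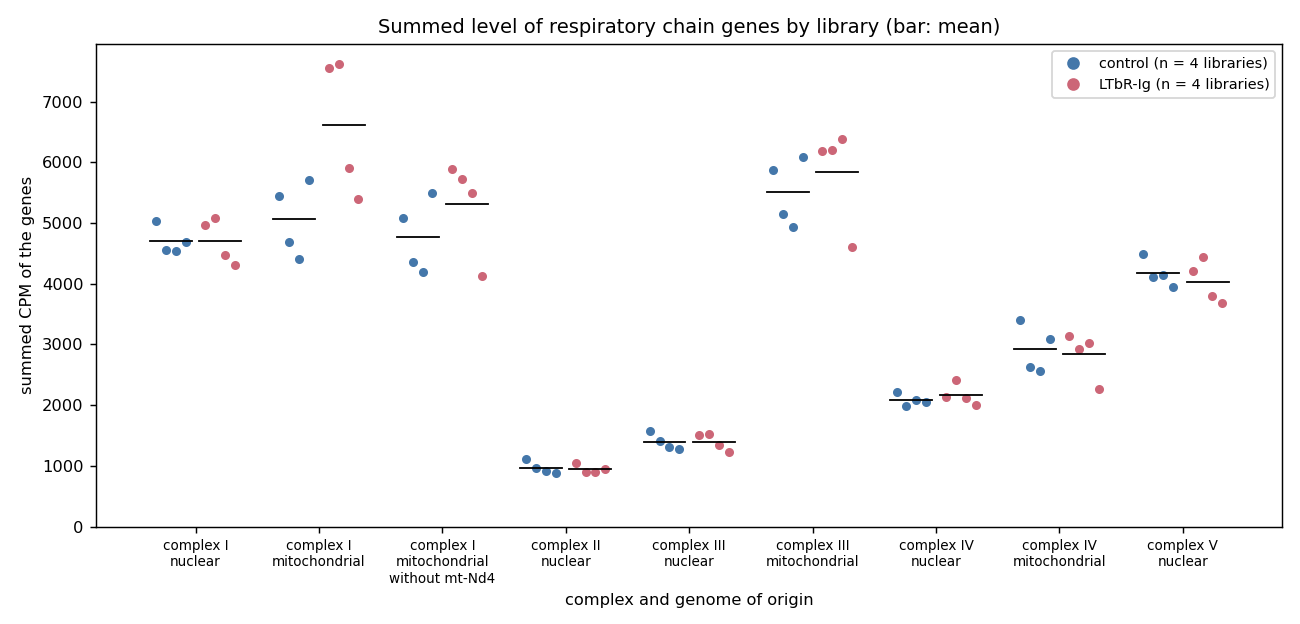
Summed CPM (y axis) of the respiratory chain genes of each complex and genome of origin (x axis) in each library; points are libraries and bars are group means. The nuclear sums of the groups overlap in every complex, and the mitochondrial sum of complex I, with means of 5065 and 6615 CPM, draws closer between groups when mt-Nd4 is left out, with 4776 and 5305 CPM.

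Libraries that were high for many of the nuclear subunits were found in both groups. LTbR-Ig replicate 2 had the highest level of the 8 libraries for 33 of the 81 subunits and control replicate 1 for 23, while LTbR-Ig replicate 4 had the lowest for 29. The median deviation of the subunits from their control mean on the log2 scale was 0.14 in LTbR-Ig replicate 2, 0.14 in control replicate 1 and -0.13 in LTbR-Ig replicate 4. In summed level control replicate 1 was the highest library (14420 CPM), just above LTbR-Ig replicate 2 (14375 CPM), and LTbR-Ig replicate 4 the lowest (12156 CPM), so each group held a high library. LTbR-Ig replicate 2 was also farthest to one side on the first principal component; its erythroid share was 2.62%, against 2.39% in control replicate 1 and 3.42% in LTbR-Ig replicate 4. The part of these differences in the subunit levels was not tested.

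Complex I takes electrons from NADH, and its catalytic core joins nuclear subunits with the mitochondrial ones. Ndufv1, the core subunit which binds NADH, measured 97.8, 88.5, 77.7 and 101 CPM in control and 85.8, 82.4, 103 and 80.9 CPM in LTbR-Ig libraries, and the groups overlapped. Of other core subunits, Ndufs7 had a log2 fold change of -0.10 and Ndufs1 of 0.12, and neither passed an unadjusted p of 0.05 in edgeR.

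Among the accessory subunits of complex I, which surround the core and stabilise it, Ndufb10 and Ndufa10 had the smallest p-values. Ndufb10, of the membrane arm, measured 147, 125, 120 and 178 CPM in control and 199, 207, 153 and 156 CPM in LTbR-Ig libraries (log2 fold change 0.33 ± 0.16 (SE), unadjusted p = 0.0743 in edgeR). Ndufa10 measured 103, 95.1, 82.5 and 97.0 CPM in control and 92.5, 84.7, 66.0 and 69.0 CPM in LTbR-Ig libraries (-0.27 ± 0.14, unadjusted p = 0.0821). Control replicate 4 lay among the LTbR-Ig libraries for Ndufb10, and LTbR-Ig replicates 1 and 2 lay among the controls for Ndufa10. The third by p, Ndufb5, had a log2 fold change of -0.24 ± 0.15: it measured 127, 109.8, 94.8 and 149.7 CPM in control and 105, 112, 101 and 88.8 CPM in LTbR-Ig libraries, and the groups overlapped. Ndufa1, a small membrane subunit needed for assembly, had the highest level per length of complex I, with 262 CPM per kb of exon in control libraries.

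The 8 Ndufaf genes encode factors that help to assemble complex I and are not part of the finished enzyme. Their median log2 fold change was 0.08, with 6 above and 2 below 0, and none passed an unadjusted p of 0.05. Ndufaf4 had the widest spread: it measured 12.8, 9.66, 9.13 and 10.8 CPM in control and 13.9, 9.85, 6.72 and 38.6 CPM in LTbR-Ig libraries, so that its log2 fold change of 0.70 ± 0.51 rests on LTbR-Ig replicate 4. Ndufaf4 was singled out after its values were seen.

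Complex II oxidises succinate and is also an enzyme of the citric acid cycle. Its flavoprotein Sdha measured 384, 356, 330 and 314 CPM in control and 392, 290, 343 and 358 CPM in LTbR-Ig libraries. The iron-sulfur subunit Sdhb measured 220, 189, 202 and 194 CPM against 214, 206, 201 and 189.7 CPM. The log2 fold changes of all 4 genes lay between -0.11 (the membrane anchor Sdhd) and 0.02 (the other anchor, Sdhc), and all 4 had intervals within 1.5-fold.

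Complex III carries electrons from ubiquinol to cytochrome c, and all 8 of its nuclear genes had intervals within 1.5-fold. Uqcrc1, a core protein, measured 287, 268, 269 and 214 CPM in control and 312, 276, 286 and 249 CPM in LTbR-Ig libraries (log2 fold change 0.11 ± 0.12). Uqcrh, the hinge protein that aids the docking of cytochrome c1 with cytochrome c, measured 139, 109, 117 and 126 CPM against 113, 122, 111 and 102 CPM (-0.13 ± 0.11). Uqcrb, a subunit near the ubiquinone site, had the highest level per length of the complex, 364 CPM per kb in control libraries, with a log2 fold change of 0.05.

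Complex IV reduces oxygen to water. Cox4i1, its largest nuclear subunit and a site of regulation, lies on chromosome 8 of GRCm38 (120668222 to 120674207, + strand) and measured 322, 261, 254 and 262 CPM in control and 294, 379, 350 and 326 CPM in LTbR-Ig libraries. Control replicate 1 lay above LTbR-Ig replicate 1, and the other 3 control libraries lay below every LTbR-Ig library. The log2 fold change was 0.29 ± 0.12 (SE, unadjusted p = 0.0326, adjusted p = 0.708, edgeR). The unadjusted p passed 0.05 upward when control replicate 2, 3 or 4 or LTbR-Ig replicate 2 or 3 was left out. It also did so when both control replicate 3 and LTbR-Ig replicate 2 were left out, and with the replicate number as a block. In edgeR it was 0.00886 without control replicate 1, 0.0156 without LTbR-Ig replicate 1 and 0.0435 without LTbR-Ig replicate 4. Of the 76-base windows of its transcript, 11.4% also occur in transcripts of Emc8, a neighbouring gene on the opposite strand. The strand setting of the counting is not given in the sources used here. This bears on more than Cox4i1, since 35 members overlap by position an annotated gene on the opposite strand. Cox5b, with a log2 fold change of 0.18 ± 0.11, and Cox6a1, the common form of subunit VIa with 0.04 ± 0.10, did not pass. Cox6a1 had the highest level per length of all nuclear subunits, 399.7 CPM per kb in control libraries.

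Several subunits of complex IV have isoforms known from restricted tissues, and most of those were scarce in these cells. Cox8b and the testis forms Cox7b2 and Cox8c were at 0 counts in each library. The heart and muscle form Cox6a2 made up 0.735 ± 0.346% (n = 4) of the summed level per length of it and its common form in control and 0.947 ± 0.987% (n = 4) in LTbR-Ig libraries, and Cox7a1 made up 1.09 ± 0.431% and 1.41 ± 1.10%. Each LTbR-Ig mean rests on 1 library, replicate 3 for Cox6a2 (2.26%) and replicate 2 for Cox7a1 (3.00%); without it the means were 0.51% and 0.875%, below those of the controls. Cox6b2, known from testis, made up 6.76 ± 2.11% (n = 4) and 5.95 ± 2.26% (n = 4). Ndufa4l2, a relative of Ndufa4 known to be induced at low oxygen, made up 3.88 ± 1.58% and 5.24 ± 1.94%.

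Cox4i2, the isoform of Cox4i1 best known from lung and low oxygen, was the most abundant of these forms per length relative to its partner. It measured 22.7, 21.9, 12.3 and 20.8 CPM in control and 16.6, 16.8, 14.3 and 7.49 CPM in LTbR-Ig libraries, with a log2 fold change of -0.50 ± 0.31 (unadjusted p = 0.145 in edgeR). As a share of Cox4i1 and Cox4i2 per length it was 12.2, 14.1, 8.71 and 13.5% in control and 10.00, 8.01, 7.42 and 4.33% in LTbR-Ig libraries. Control replicate 3 fell among the LTbR-Ig libraries, and the other 3 controls lay above all of them. The share joins the only nuclear subunit with an unadjusted p under 0.05 with the one of lowest fold change, so it was chosen after both were seen and is given without a test.

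**Figure D3:**
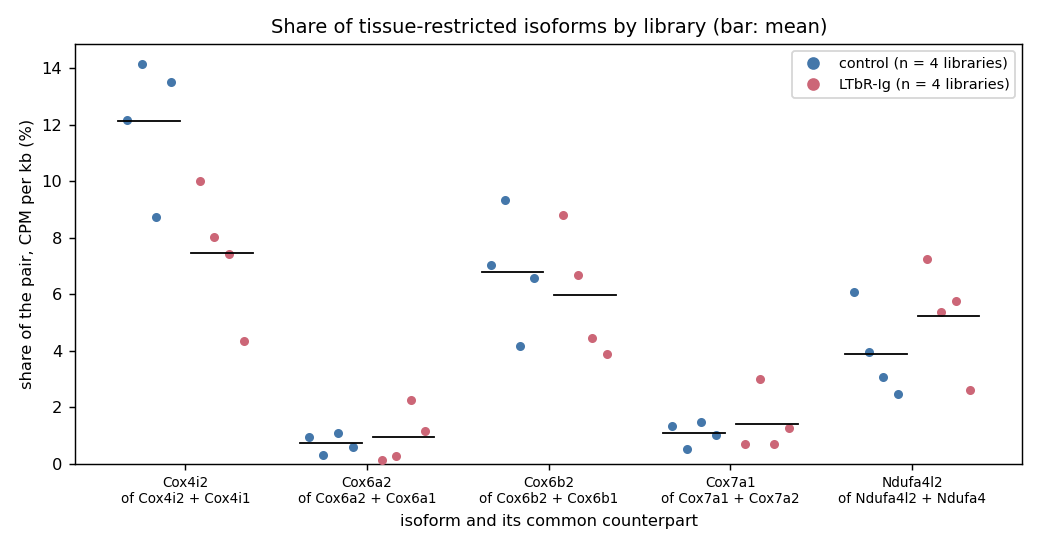
Share (y axis, percent) of each tissue-restricted isoform in the summed CPM per kb of the isoform and its common counterpart (x axis) in each library; points are libraries and bars are group means. The mean share of Cox4i2 is 12.1% in control and 7.44% in LTbR-Ig libraries, with control replicate 3 inside the LTbR-Ig range, and the other isoforms overlap widely.

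Ndufa4, once counted with complex I and now with complex IV, showed 2 high libraries, 1 in each group. It measured 187, 158, 304 and 170.3 CPM in control and 193, 206, 170.1 and 274 CPM in LTbR-Ig libraries, and its log2 fold change was 0.04 ± 0.23.

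Complex V makes ATP with a rotary motor. Atp5a1 and Atp5b, the alpha and beta subunits of its catalytic head, were the nuclear members with the highest CPM: Atp5a1 measured 589, 639.9, 603 and 489 CPM in control and 620.4, 527, 506 and 489 CPM in LTbR-Ig libraries. Its log2 fold change was -0.12 ± 0.12, and that of Atp5b 0.03 ± 0.10. Atp5c1, the gamma subunit of the rotor shaft, had the highest level per length of complex V, 261 CPM per kb in control libraries, and a log2 fold change of -0.09 ± 0.10. Atp5f1, subunit b of the stator, measured 384, 329, 419.5 and 431 CPM against 362, 329, 364 and 392 CPM (-0.11 ± 0.11). Atp5j2, subunit f, had the lowest value of the complex, -0.20 ± 0.19. Atp5g1, Atp5g2 and Atp5g3, which encode the same mature ring subunit c, had log2 fold changes of -0.13, 0.01 and 0.11. For 21 nuclear members more than 10% of 76-base windows also occur in other annotated transcripts, up to 75.7% for Atp5l, and their levels are uncertain to that extent.

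The nuclear members have a known common regulatory background: the factors NRF1, GABP and YY1 bind many promoters of respiratory chain genes. In RefSeq promoters of 300 bases (250 before and 50 after the start, GRCm38.p6), which matched 74 of the 93 nuclear members, the letters GCGCANGCGC, the core of the NRF1 motif, occurred on either strand in 19 members (25.7%) and in 5.19% of 27025 genes. CCGGAAG, the core bound by GABP and other ETS factors, occurred in 18 members (24.3%) and 9.93% of genes, and AAGATGG, of the YY1 motif, in 11 members (14.9%) and 7.28% of genes. The letters are a description of these windows; the letter runs can overlap each other and CpG-rich sequence.

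The 250 bases before the start are shown for a gene each of complexes I, II, IV and V, on 4 chromosomes, to show the shared letters, with matches to the NRF1 and GABP motifs on either strand in capitals (CTTCCGG is the GABP core read on the other strand).
Ndufb4 (chr16:37654369-37654618, - strand): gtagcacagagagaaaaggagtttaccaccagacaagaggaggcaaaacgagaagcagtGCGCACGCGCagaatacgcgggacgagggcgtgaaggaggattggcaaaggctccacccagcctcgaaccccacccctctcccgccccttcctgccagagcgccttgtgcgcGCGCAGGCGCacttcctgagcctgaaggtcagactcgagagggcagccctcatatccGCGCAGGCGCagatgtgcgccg
Sdha (chr13:74350241-74350490, - strand): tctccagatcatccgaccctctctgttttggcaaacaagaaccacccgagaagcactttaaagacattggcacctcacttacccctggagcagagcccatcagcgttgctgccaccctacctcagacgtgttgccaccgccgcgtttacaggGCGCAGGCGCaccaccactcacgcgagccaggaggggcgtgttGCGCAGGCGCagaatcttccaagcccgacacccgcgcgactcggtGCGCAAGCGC
Cox6a1 (chr5:115348959-115349208, - strand): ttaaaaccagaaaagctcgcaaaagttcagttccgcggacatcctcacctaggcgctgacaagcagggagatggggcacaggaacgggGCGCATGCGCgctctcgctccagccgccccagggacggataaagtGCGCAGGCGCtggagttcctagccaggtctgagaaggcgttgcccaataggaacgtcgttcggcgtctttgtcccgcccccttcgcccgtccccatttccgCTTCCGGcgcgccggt
Atp5h (chr11:115419920-115420169, - strand): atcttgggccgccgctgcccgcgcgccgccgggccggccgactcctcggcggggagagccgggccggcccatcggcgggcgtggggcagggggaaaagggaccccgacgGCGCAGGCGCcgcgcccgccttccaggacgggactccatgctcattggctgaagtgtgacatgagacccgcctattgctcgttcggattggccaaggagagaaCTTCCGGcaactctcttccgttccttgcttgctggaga
Ndufb4 and Sdha hold 3 NRF1 matches each, Cox6a1 holds 2 and Atp5h 1, and the last 2 also hold a GABP match. The log2 fold changes of these 4 genes were -0.01, -0.00, 0.04 and -0.08.

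Of the genes that serve the chain without being members, 126 of 132 listed were tested: assembly factors of each complex, carriers of electrons and ubiquinone synthesis, mitochondrial gene expression, regulators, the citric acid cycle, and uncoupling proteins and carriers. None passed the adjusted threshold in edgeR. With an unadjusted p below 0.05 there were 3 on the higher side and 1 on the lower side, shares no larger than the 3.39% and 2.93% of all genes, so the 4 are named as values and not as results about these lists, and their median log2 fold change was -0.03. Slc25a4, an ADP/ATP carrier of the inner membrane, measured 571 ± 28.2 CPM (n = 4) in control and 718 ± 86.1 CPM (n = 4) in LTbR-Ig libraries, a log2 fold change of 0.33 (unadjusted p = 0.0116 in edgeR). Nfe2l2, the regulator of antioxidant genes, had a log2 fold change of 0.24 (unadjusted p = 0.0204 in edgeR). Dlst, of the oxoglutarate dehydrogenase complex, measured 26.6, 31.0, 54.2 and 30.9 CPM in control and 108, 37.6, 41.8 and 120.2 CPM in LTbR-Ig libraries, with LTbR-Ig replicates 1 and 4 high (log2 fold change 1.11, unadjusted p = 0.0281 in edgeR). Pnpt1, which takes part in mitochondrial RNA import and degradation, measured 36.6, 27.1, 30.6 and 36.1 CPM in control and 24.0, 23.8, 26.7 and 21.4 CPM in LTbR-Ig libraries. Its log2 fold change was -0.44 (unadjusted p = 0.0237 in edgeR). All its LTbR-Ig libraries lay below all controls, 26.7 CPM being just under 27.1 CPM, as held for 2.53% of all genes. For Slc25a4 and Nfe2l2 all LTbR-Ig libraries lay above all controls, as held for 2.36% of all genes. For Slc25a4 this was almost a tie, with LTbR-Ig replicate 3 at 608.24 CPM and control replicate 1 at 608.17 CPM. Of the factors whose motifs were searched, Nrf1 had a log2 fold change of -0.42 ± 0.22, Gabpa -0.08 ± 0.13 and Yy1 -0.06 ± 0.11, none past an unadjusted p of 0.05.

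The 13 mitochondrially encoded members summed to 13507 ± 1524 CPM (n = 4) in control and 15299 ± 2140 CPM (n = 4) in LTbR-Ig libraries. The ratio of this sum to that of the nuclear subunits was 1.02, 0.957, 0.918 and 1.16 in control and 1.22, 1.16, 1.21 and 1.01 in LTbR-Ig libraries. With the 5 genes that lie outside the stretch from mt-Co1 to mt-Nd4 (mt-Nd1, mt-Nd2, mt-Nd5, mt-Nd6 and mt-Cytb) the ratio was 0.773 ± 0.0895 (n = 4) and 0.839 ± 0.0927 (n = 4). The 2 groups overlapped in both ratios.

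mt-Cytb, the one mitochondrial subunit of complex III, had the highest level of all members. It measured 5868, 5143, 4941 and 6094 CPM in control and 6181, 6204, 6377 and 4605 CPM in LTbR-Ig libraries, a log2 fold change of 0.08 ± 0.12. LTbR-Ig replicate 4 was the lowest library for mt-Cytb. It was also the lowest for mt-Nd2, mt-Nd5 and mt-Nd6, subunits of complex I, whose log2 fold changes were 0.19 ± 0.16, 0.14 ± 0.13 and 0.18 ± 0.16. mt-Nd1, at the ubiquinone site of complex I, measured 2809, 2298, 2143 and 2933 CPM in control and 3119, 3132, 2795 and 2187 CPM in LTbR-Ig libraries (0.14 ± 0.15). mt-Co1, the catalytic subunit of complex IV, measured 3381, 2615, 2548 and 3070 CPM against 3127, 2902, 3004 and 2251 CPM (-0.04 ± 0.13). The ribosomal RNAs of the same genome, mt-Rnr1 and mt-Rnr2, had log2 fold changes of 0.04 and -0.02.

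mt-Nd4 measured 372, 342, 226 and 218 CPM in control and 1652, 1894, 417 and 1277 CPM in LTbR-Ig libraries. LTbR-Ig replicates 1, 2 and 4 lay far above the controls, and LTbR-Ig replicate 3 lay just above control replicate 1. The counts behind these levels were 12669 to 23305 in control and 23619 to 101919 in LTbR-Ig libraries, so counting error was small beside the spread between libraries. The log2 fold change was 2.18 ± 0.43 (SE; unadjusted p = 0.000673, adjusted p = 0.177, edgeR). DESeq2 gave an adjusted p of 1.41e-06, and edgeR without LTbR-Ig replicate 3 gave a log2 fold change of 2.48 with an adjusted p of 0.0310, while in the other edgeR and limma-voom settings the adjusted p ran from 0.164 to 0.616. Over all 16045 tested genes, 171 had a log2 fold change of at least that of mt-Nd4, and mt-Nd4 ranked 61 by p in edgeR. Among the 1870 tested genes with a control mean of at least 100 CPM, 2 genes, mt-Nd4 being one, had a log2 fold change as high.

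The ratio of mt-Nd4 to mt-Nd5, a neighbour on the same strand, was 0.344, 0.351, 0.234 and 0.196 in control and 1.28, 1.75, 0.329 and 1.41 in LTbR-Ig libraries. LTbR-Ig replicate 3 thus fell inside the control range, and an exact permutation test of the mean log2 ratio, chosen after the values were seen, gave a two-sided p of 0.0857. The erythroid share of counts was 2.39, 2.16, 5.49 and 3.85% in control and 2.18, 2.62, 4.16 and 3.42% in LTbR-Ig libraries. Within each group, the 2 libraries with the larger erythroid share were those with the lower mt-Nd4 level. LTbR-Ig replicate 3 also had the lowest Lepr level of the 8 libraries, at 3159 CPM. Its shares of megakaryocyte (0.354%), endothelial (0.0281%), macrophage (0.265%), pan-hemopoietic (0.0821%) and T and NK cell genes (0.0114%) were the largest. For erythroid, neutrophil, B and plasma cell, muscle, and osteoblast and chondrocyte genes another library had the largest share. The part of these other cell types in the mt-Nd4 result was not tested.

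**Figure D4:**
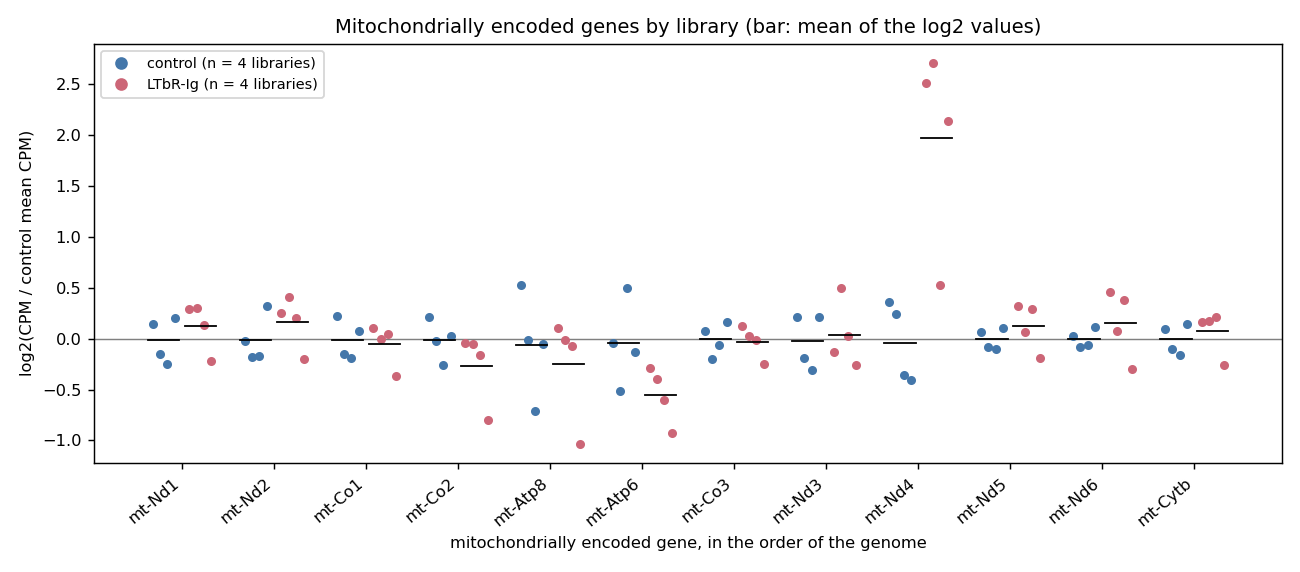
Level of 12 mitochondrially encoded genes in each library as log2 of CPM over the control mean (y axis), in the order of the genome (x axis); points are libraries and bars are means of the log2 values. The libraries of mt-Nd4 spread widely, with 3 LTbR-Ig libraries at the top, while the high LTbR-Ig libraries of mt-Nd4 are not raised alike for mt-Nd5, with log2 fold changes of 2.18 and 0.14.

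The levels of the mitochondrial genes cannot be read alike, since part of the mitochondrial genome has a near-identical annotated copy in the nuclear genome. The unprocessed pseudogenes Gm29216, Gm28661, Gm10925, Gm28437, Gm28438, Gm10222 and Gm28439 lie in a row on chromosome 1 of GRCm38 (24611535 to 24616197, - strand) and match the end of mt-Co1, then mt-Co2, mt-Atp6, mt-Co3, mt-Nd3, mt-Nd4l and the first 876 of the 1378 bases of mt-Nd4. Identity over the matched bases was 100% for 5 of the 7 pairs, 99.7% for mt-Nd3 and 99.8% for mt-Co1. Of the 76-base windows, the read length of the study, 97.8 to 99.9% of those of mt-Co2, mt-Atp6, mt-Co3, mt-Nd3 and mt-Nd4l are shared with another annotated gene, 61.5% of those of mt-Nd4 and 39.4% of those of mt-Co1. mt-Atp8 lies opposite an interval between Gm28661 and Gm10925 that holds no annotated transcript, so its share of 0% says nothing of that interval.

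The end of the matched part of mt-Nd4 is shown because the counts of this gene turn on which bases can be told apart from the copy: lower case marks bases held by the annotated copy, and capitals those that follow its end.
mt-Nd4 bases 817 to 936 (chrM:10983-11102, + strand): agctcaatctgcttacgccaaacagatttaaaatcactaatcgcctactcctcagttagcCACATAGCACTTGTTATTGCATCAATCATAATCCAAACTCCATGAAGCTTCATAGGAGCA
Gm28439 bases 817 to 876 (chr1:24611535-24611594, - strand): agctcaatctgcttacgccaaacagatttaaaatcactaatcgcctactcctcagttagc
The copy is annotated on chromosome 1 and its last 60 bases equal those of the matched part. The 502 windows of mt-Nd4 that no other annotated transcript holds all lie toward its 3′ end, where mt-Nd4 occupies chrM:10167-11544.

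The genes with nearly all windows shared were listed at low counts. mt-Co2, the subunit of complex IV that receives electrons from cytochrome c, measured 12.0, 10.2, 8.69 and 10.6 CPM in control and 10.0, 9.96, 9.26 and 5.97 CPM in LTbR-Ig libraries. mt-Co3, of the same complex, measured 3.91 to 5.20 CPM over all 8 libraries and mt-Nd3, of complex I, 1.93 to 3.38 CPM. mt-Atp6, the proton channel subunit of complex V, measured 10.3, 7.36, 14.9 and 9.62 CPM in control and 8.61, 7.98, 6.93 and 5.53 CPM in LTbR-Ig libraries, with a log2 fold change of -0.54 ± 0.29 (unadjusted p = 0.102 in edgeR). mt-Atp8 measured 0.642 to 1.88 CPM. By contrast mt-Co1, transcribed from the same strand next to them, stood at 1879 CPM per kb in control libraries and mt-Co2 at 15.1 CPM per kb. How multiply aligned reads were treated is not given in the sources used here, so these values describe the deposited counts and are not read as levels of the transcripts.

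Divided by the windows that are not shared, mt-Nd4 stood at 577 CPM per 1000 windows in control and 2610 in LTbR-Ig libraries, beside 601 and 661 for mt-Nd5 and 682 and 774 for mt-Nd6. On this scale the control level of mt-Nd4 was close to those of mt-Nd5 and mt-Nd6, and the LTbR-Ig mean lay above them. Other mitochondrial genes were far from these in control libraries: mt-Nd4l, which overlaps mt-Nd4, stood at 41.6 and mt-Cytb at 5156. The value of mt-Nd4l rests on 3 windows. mt-Nd6 lies on the - strand and starts at 13552, before the end of mt-Nd5 on the + strand at 13565. Since the strand setting is not given, the strand that its counts came from is not known. The scale treats shared windows as if they held no counted reads, which is not known. The part of shared windows in the difference between groups was not tested.

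The copies themselves held few counts. Gm28439, the copy of mt-Nd4, had 49, 0, 40 and 47 counts in control and 102, 38, 40 and 34 counts in LTbR-Ig libraries, and adding them to mt-Nd4 left its log2 fold change at 2.18. Gm10925, the copy of mt-Atp6, had 750, 534, 5825 and 634 counts in control and 561, 425, 444 and 368 counts in LTbR-Ig libraries, with control replicate 3 far above the rest. Adding the copy to mt-Atp6 gave a log2 fold change of -1.53 (unadjusted p = 0.0390 in edgeR), with control replicate 3 far above the other controls in that sum.

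**Figure D5:**
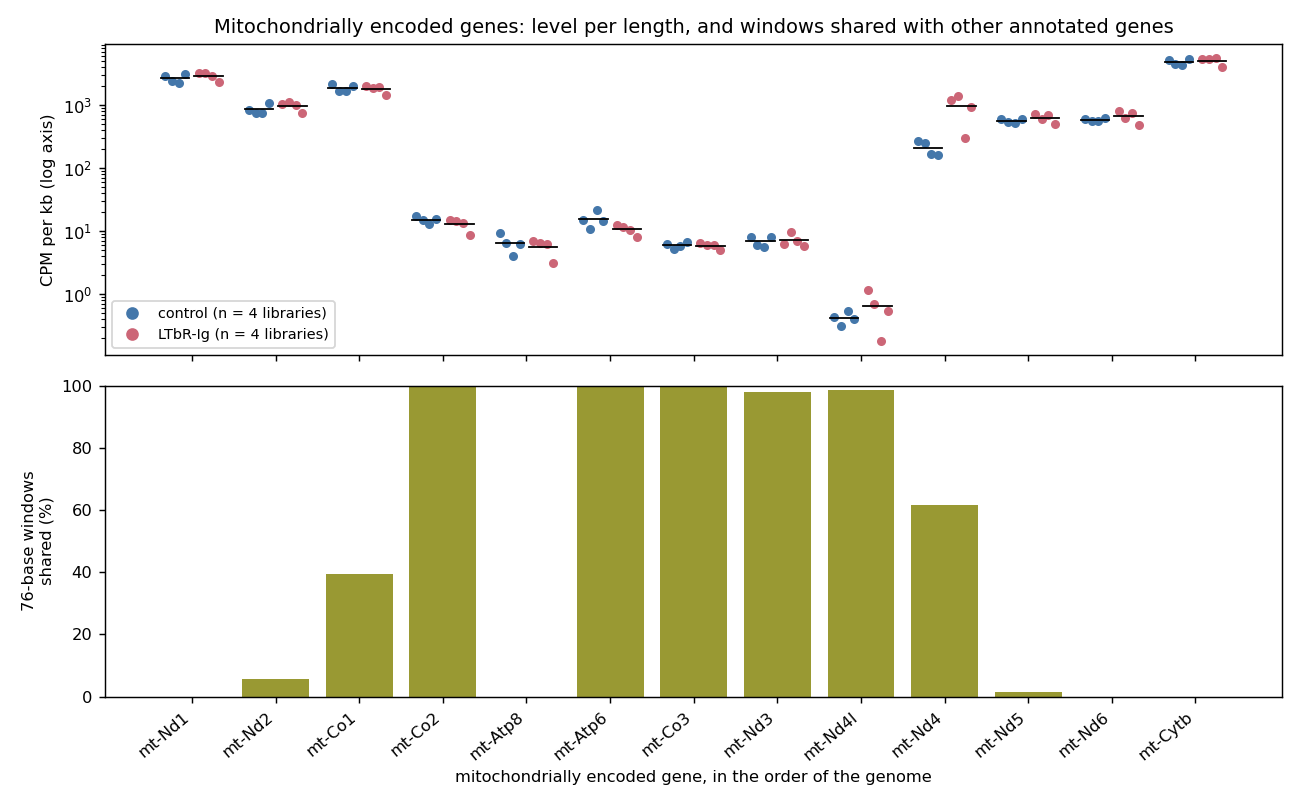
Upper panel, level of the 13 mitochondrially encoded genes in CPM per kb (log axis) in each library, with points for libraries and bars for group means; lower panel, percent of 76-base windows of each gene that occur in another annotated transcript, with genes in genome order on the x axis. The genes with 97.8 to 99.9% of windows shared are the low ones together with mt-Atp8, and mt-Cytb, mt-Nd1, mt-Nd2, mt-Nd5 and mt-Nd6, with few or none shared, lie far above them.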

How the data were processed

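The authors deposited a table of raw gene counts from paired 76-base reads; per the submitters' processing notes HISAT2 and HTSeq were used with mm10, while versions, the annotation, the strand setting and the treatment of multiply aligned reads are not given in the sources. Ensembl IDs without version matched GENCODE M21 (GRCm38) for 52489 of 52636 genes, and genes without a symbol held 0.0207 to 0.148% of counts. Total counts were 52378101 to 64403177 per library. The main test was edgeR 4.0.16 (R 4.3.3): TMM scaling, filterByExpr by group, robust quasi-likelihood F test and Benjamini-Hochberg adjustment over 16045 genes at 0.05. CPM, counts scaled to a common effective library size, were computed from the TMM factors. Alternatives used DESeq2 1.42.0, limma 3.58.1 voom, other scalings and filters, a replicate block, libraries left out, and the chromosome 1 copies added to the mitochondrial genes. The median log2 fold changes from edgeR were checked on counts simulated from the means and dispersions of these data. The error rate of the p-values and the intervals were not checked in this way. No replicates were duplicate libraries: counts differed far beyond sampling noise in every pair.

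The series text speaks of 4 pairs without saying what joins them. The correlations of the deviations of same-numbered libraries were 0.0749, 0.0297, 0.0453 and 0.000129, all under 0.1. Those of differently numbered libraries ran from -0.0875 to 0.0786. The main fit was left unpaired for this reason, and the replicate block is given as an alternative. Such correlations cannot show that the pairs share nothing.

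The members and lists were chosen with earlier results of these data known. Named members were all mitochondrial ones, those with an unadjusted p under 0.05, per nuclear complex the 3 with the smallest p and the highest per kb, and tissue-restricted isoforms; others named are described for their role or were chosen after their values were seen. Windows of 76 bases of each member's longest coding transcript were compared with all GENCODE M21 transcripts on both strands. Promoters came from RefSeq (GRCm38.p6). Levels per kb use the union of exons. Values of some members are not reported here.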

Additional observations from a re-analysis of the deposited data

Results flagged for a closer look

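In each group of 4 libraries, a library was picked out where its gap to the nearest other library was too large a part of the group's range by Dixon's 95% criterion. This held for 9 of 220 pairs of value and group, where chance gives about 1 in 20. That share is no larger than the one chance gives, so the libraries below are named as values and not as results.

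LTbR-Ig replicate 2, the highest library for many nuclear subunits, stood apart for Ndufa2 at 162 CPM (others 136 to 139.8), for Ndufs8 at 212 CPM (others 166 to 174) and for the muscle isoform Cox7a1 at 3.09 CPM (others 0.616 to 1.01). Control replicate 1 stood apart for Ndufc2 at 223 CPM (others 168 to 173) and for Cox4i1 at 322 CPM (others 254 to 262). LTbR-Ig replicate 4 stood apart for mt-Cytb at 4605 CPM (others 6181 to 6377).

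The remaining 3 are copies of mitochondrial genes on chromosome 1. Gm10925, the copy of mt-Atp6, was at 104 CPM in control replicate 3 (others 8.15 to 12.0). Gm28439, the copy of mt-Nd4, was at 0 CPM in control replicate 2 (others 0.713 to 0.802) and at 1.65 CPM in LTbR-Ig replicate 1 (others 0.662 to 0.717).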

How the results depend on the processing

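The number of genes called over all genes (6) was 201 by DESeq2, 17 by limma-voom with sample weights, 22 with the stricter filter, 1 with the replicate block and 1 without both control replicate 3 and LTbR-Ig replicate 2, an alternative added after seeing the data; leaving out 1 library at a time gave 2 to 9. Members called (0) were 1 by DESeq2 and 0 to 1 with a library left out, mt-Nd4 without LTbR-Ig replicate 3. Members higher at an unadjusted p under 0.05 (2) were 1 with the replicate block, 1 without both libraries, and 1 to 4 with a library left out; members lower (0) were 1 with the replicate block, 1 without both libraries, 1 with the chromosome 1 copies added (also after seeing the data), and 0 to 2 with a library left out. The replicate block gave mt-Nd4 a log2 fold change of 2.02 with an adjusted p of 0.357 (edgeR), and not every library correlated best with its own number. For these counts the cause was not tested, beyond fewer libraries where some were left out. Control replicate 3 and LTbR-Ig replicate 2 are the ends of a first principal component on which the groups did not overlap. Leaving both out thus also removes the most separated libraries on that component. The class medians and the share ratios moved by less than the spread between libraries. No named member other than mt-Nd4 passed the adjusted threshold of 0.05 in any setting, but values and unadjusted p did move: mt-Atp6 went from -0.54 to -1.53 with the copies added, Cox4i1 lost an unadjusted p under 0.05 with the replicate block and without both libraries, Ndufa10 gained one with the replicate block (edgeR unadjusted p = 0.0474) and Ndufb5 without both libraries (edgeR unadjusted p = 0.043). With 1 library left out, Cox4i1 also lost its own in the edgeR fits given above. Such fits gave Ndufb10 unadjusted p-values of 0.0189 (without control replicate 4) and 0.0479 (LTbR-Ig replicate 3). They gave Ndufa10 0.0333 (LTbR-Ig replicate 1), Ndufb5 0.0463 (control replicate 3), Atp5j2 0.0482 (LTbR-Ig replicate 2) and mt-Nd6 0.0276 (LTbR-Ig replicate 4). In all, 34 of 596 values of named members had the opposite sign, none past an unadjusted p of 0.05. Cox7b2, Cox8b and Cox8c (0 counts) and mt-Nd4l, with 98.6% of its windows shared, were not tested. Low counts limit Cox6a2 (19 to 372 counts) and Cox7a1 (31 to 164 counts), whose intervals are wide.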
